A study of Mus musculus with 48 samples.

Results

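The germline heavy-chain genes IGHV11-1, IGHV11-2 and IGHV12-3 were followed through BCR heavy-chain libraries of the lacrimal gland (LG) and spleen of C57BL/6 (B6) mice. Members were all sequences whose assigned V gene was one of these 3 genes, of 148 IGHV genes assigned. They made up 10245 of 4834214 unique sequences (0.212%), 80484 of 14545027 counts (0.553%) and 3587 of 3184376 clonotypes. A count is 1 consensus sequence built from reads that share a unique molecular identifier, and a clonotype joins the sequences of 1 V gene, 1 J gene and 1 amino acid sequence of the third complementarity-determining region (HCDR3). By gene, IGHV11-2 held 1860 clonotypes, IGHV12-3 held 1596 and IGHV11-1 held 131.

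Both tissues of 24 mice were sequenced. The NOD-FMT group (n = 10) was gavaged daily for 3 weeks from the age of 5 weeks with the supernatant of feces pooled from 30 male NOD.B10.H2b donors, which had autoimmune dry eye disease and were past 20 weeks of age. The PBS-T group (n = 9) received PBS on the same schedule. Before gavage, feces had been mixed between cages, and the mice had then drunk ampicillin, vancomycin and metronidazole for 7 days. The BCR control group (n = 5, NC1 in the labels) was made up of additional B6 mice that were given no treatment.

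B-1 cells are a self-renewing B cell lineage that arises mostly early in life, fills the body cavities, is present in the spleen in smaller numbers, and secretes natural IgM without deliberate immunization. A well-known share of them binds phosphatidylcholine, a membrane lipid exposed on aged red cells and on bacteria, through IGHV11-2 or IGHV12-3 heavy chains with little or no somatic mutation. Their HCDR3 often carries few added N nucleotides. Only heavy chains were sequenced here, from whole tissue, so neither the B-1 phenotype nor binding to phosphatidylcholine was measured.

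The HCDR3 sequences that carried the results are shown first, since the same letters came back in mouse after mouse. In each, lower case marks the bases that match the germline V gene end or the germline J gene start, and capitals mark the bases between them. The germline ends, from GRCm38 in GENCODE M21, are given with the conserved cysteine codon in lower case and the first HCDR3 bases in capitals.
IGHV11-2 germline end, also that of IGHV11-1: tgtATGAGATA
IGHV12-3 germline end: tgtGCAGGAGACAG
IGHJ1 germline start: ctactggtacttcgatgtc
IGHV11-2 MRYSNYWYFDV, in all 24 spleens: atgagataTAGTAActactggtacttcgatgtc
IGHV11-2 MRYGNYWYFDV, in all 24 spleens: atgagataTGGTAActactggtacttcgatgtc
IGHV11-2 MRYGSSYWYFDV, in all 24 spleens: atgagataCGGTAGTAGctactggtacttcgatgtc
IGHV12-3 AGDYDGYWYFDV, in all 24 spleens: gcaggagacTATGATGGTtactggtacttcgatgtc
IGHV12-3 AGDRDGYWYFDV, clonotype and printed form in 23 spleens: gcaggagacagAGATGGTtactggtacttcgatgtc
IGHV12-3 AGDSDGYWYFDV, clonotype in 20 spleens and printed form in 17: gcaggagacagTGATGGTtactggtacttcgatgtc

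In MRYSNYWYFDV the whole of IGHJ1 from its first base followed 8 V bases and a middle of 6 bases, and this 1 nucleotide form made up 98.5% of the counts of the clonotype, in 24 mice. The printed forms of MRYGNYWYFDV and MRYGSSYWYFDV made up 94.7% and 95.0% of theirs. In IGHV12-3, AGDYDGYWYFDV was encoded by 11 nucleotide forms, of which the printed one held 81.2% of counts. The printed forms of AGDRDGYWYFDV and AGDSDGYWYFDV held 61.8% and 70.8%, among 13 and 7 forms. The middle bases of every printed sequence except that of AGDRDGYWYFDV were found whole within a germline D segment.

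All 3 genes lie on the minus strand of chromosome 12. IGHV11-1 spans chr12:113981879-113982341, IGHV11-2 spans chr12:114048241-114048812 and IGHV12-3 spans chr12:114366521-114366954, each with a leader exon and a second exon that encodes the V region. The genes are 65899 and 317708 bases apart. The second exons of IGHV11-1 and IGHV11-2 were identical at 98.7% of 307 bases and differed by A37G, C49A, C212A and T275G, with the base of IGHV11-1 first and positions counted from the start of exon 2. The 2 genes share 1 of the 35 V primers with 0 mismatches. Every one of these 4 bases was that of the assigned gene in 148 of 151 IGHV11-1 sequences and in 5020 of 5101 IGHV11-2 sequences that could be compared. Values of these 2 genes can still hold some sequences of the other.

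Spleen libraries held 86717 to 2302185 counts and 23938 to 598574 clonotypes, and LG libraries held 40513 to 360216 counts and 565 to 17222 clonotypes. Some libraries stood apart in the share of counts on nucleotide sequences that more than 2 mice had in common. This share was 66.6% in the spleen of PBS-T 6, against 4.94% to 11.96% in the other spleens. In the LG it was 39.8% in PBS-T 5 and 23.4% in NOD-FMT 7, against a median of 1.06% over all LG libraries. NOD-FMT 5 at 16.3% and NOD-FMT 10 at 8.34% came next. Values that moved most without the spleen of PBS-T 6 or the LG of PBS-T 5 or NOD-FMT 7 are given both ways. All deposited sequences were used in the values below, because sequences identical between mice are part of what is asked about these genes. As an alternative, these shared sequences were left out, with sharing counted within a tissue. The study describes a filter in similar words, but this one removed far more counts than the study's own, so its effect is not that of the study's filter.

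IGHV11-2 and IGHV12-3 were at low and similar levels in the spleen, and IGHV11-1 was lower still. IGHV11-2 made up 0.0693% ± 0.0141 of spleen clonotypes (SD, n = 24, range 0.0475% to 0.117%) and IGHV12-3 made up 0.0689% ± 0.0173 (range 0.0446% to 0.121%), a gap far inside the spread between mice. IGHV11-1 made up 0.00411% ± 0.00183, with 1 to 17 clonotypes a spleen, and was below both other genes in every spleen. Among 118 IGHV genes with at least 10 spleen clonotypes, IGHV11-2 and IGHV12-3 ranked 89 and 90 from the most used.

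By counts, which weigh a clonotype by its consensus sequences, IGHV11-2 ranked higher. It took 0.447% ± 0.252 of spleen counts (rank 56 of 118, range 0.0934% to 1.09%), IGHV12-3 took 0.104% ± 0.115 (rank 83) and IGHV11-1 took 0.00436% ± 0.00863 (rank 100). The ratio of the share of counts to the share of clonotypes had a median of 5.66 for IGHV11-2 over the 24 spleens, the highest of the 118 genes, and was above 1 in 23 of 24. It was 3.96 for IGHV7-1 (rank 3), the gene of phosphorylcholine-binding antibodies that B-1 cells also use, 1.15 for IGHV12-3 (rank 15) and 0.439 for IGHV11-1, while the median gene had 0.718. More cells of a clonotype and more transcript per cell cannot be told apart in RNA of a whole tissue.

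**Figure D1:**
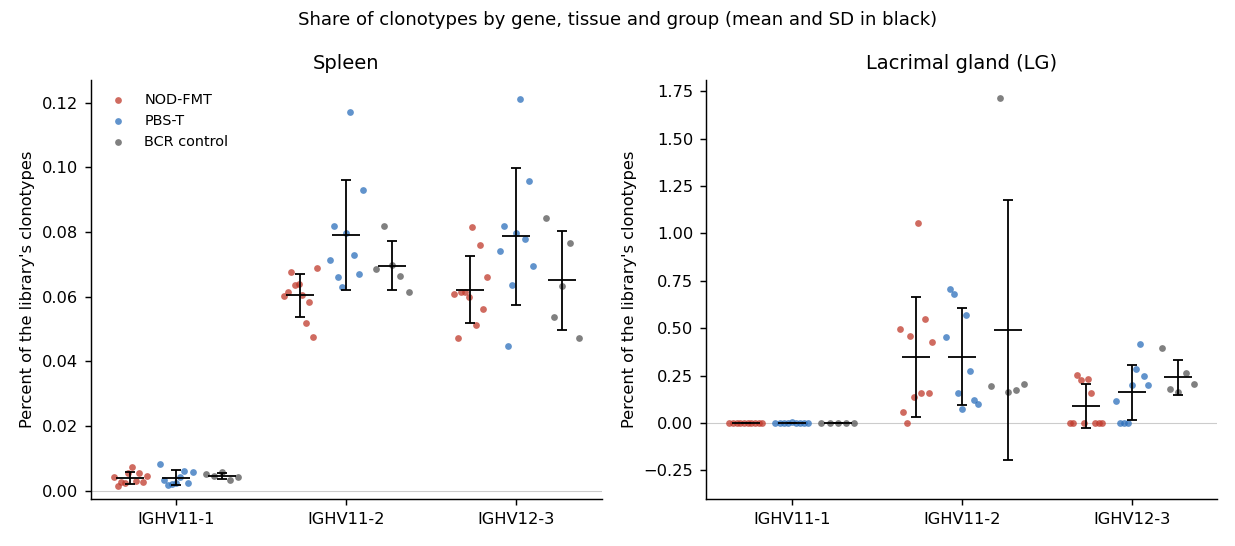
Share of each library's clonotypes (percent) taken by IGHV11-1, IGHV11-2 and IGHV12-3 in spleen and LG, with 1 point per mouse, colors by group, and the mean and SD in black; the 2 panels have different scales. IGHV11-2 and IGHV12-3 sit near 0.07% in the spleen, and in the LG the points spread up to the 1.72% of BCR control 2.

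Usage of the genes in the spleen was then compared between groups. IGHV11-2 made up 0.0475%, 0.0609% and 0.0688% of clonotypes in the lowest, median and highest NOD-FMT spleen, 0.0631%, 0.0728% and 0.117% in PBS-T, and 0.0615%, 0.0685% and 0.0819% in BCR control. The NOD-FMT spleens lay lower on the whole, but the groups overlapped. Library size differed as well, with a median of 148203 clonotypes a spleen in NOD-FMT, 107616 in PBS-T and 146148 in BCR control. Over the 24 spleens the IGHV11-2 share had a Spearman rho of -0.49 with this total. The cause of the lower share was not tested. The log2 ratio of NOD-FMT to PBS-T was -0.35 (SE 0.11), with an adjusted p of 0.114 by edgeR's quasi-likelihood test over 118 genes and of 0.125 by DESeq2, so IGHV11-2 was not called. In this comparison 1 of 118 genes (0.847%) was called. An exact permutation test of the mean percent gave p = 0.000433, with an adjusted p of 0.0256 over the same genes. The highest PBS-T value was that of the spleen of PBS-T 6, and without that library the adjusted p was 0.160 by edgeR and 0.0876 by permutation, so the call by permutation was lost.

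IGHV12-3 showed a difference of similar size with more spread. Its share of clonotypes was 0.0621% ± 0.0104 in NOD-FMT (SD, n = 10), 0.0787% ± 0.0212 in PBS-T (n = 9) and 0.0650% ± 0.0154 in BCR control (n = 5). The log2 ratio of NOD-FMT to PBS-T was -0.30 (SE 0.15, edgeR adjusted p = 0.442), and that of IGHV11-1 was -0.01 (SE 0.32, adjusted p = 0.985). Against BCR control, no member passed in NOD-FMT (adjusted p of 0.936 or more by edgeR) or in PBS-T (0.9999 for each). In those comparisons edgeR called 0 of 118 genes (0%), with 7 and 6 genes at an unadjusted p under 0.05, and DESeq2 called 1 and 0 genes. By counts of the spleen, the log2 ratio of NOD-FMT to PBS-T was 0.23 (SE 0.35) for IGHV11-2, 0.15 (SE 0.40) for IGHV12-3 and 0.57 (SE 0.75) for IGHV11-1, with edgeR adjusted p of 0.864, 0.978 and 0.824, against 6 of 118 genes (5.08%) called.

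The clonotypes of IGHV11-2 and IGHV12-3 in the spleen were next set against those of all other IGHV genes in the same spleen. IGHV11-1 was left out of these tests, since only the spleens of BCR control 1 and NOD-FMT 3 held 10 or more of its clonotypes. The test was a two-sided sign-flip permutation over the 24 mice, adjusted over 99 genes and 5 features (495 tests), and 1e-05 is the smallest p that its 100000 resamples can give. Some spleen clonotypes lay 1 residue from one of the same V and J genes with at least 20 times their counts in that library. Counted by spleen, these were 275 of 2336 in IGHV11-2 (11.8%) and 163 of 2332 in IGHV12-3 (6.99%), against 1.54% over all genes. The features were not compared without them.

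IGHJ1, the J segment nearest to the D segments, was joined far more often to these V genes. It was carried by 47.9% ± 6.72 of IGHV11-2 clonotypes (SD, n = 24, range 36.3% to 58.8%) and by 40.0% ± 6.74 of IGHV12-3 clonotypes (range 27.25% to 56.3%), against 15.3% ± 0.42 of all others. The ranges did not overlap, and both genes were higher in 24 of 24 spleens (p = 1e-05, adjusted 2.23e-05, permutation). The same test called 38.4% of the 99 genes higher and 38.4% lower. By the mean share IGHV11-2 ranked 2, IGHV12-3 ranked 4 and the comparison gene IGHV7-1 ranked 5 at 35.9%. In IGHV11-2 and IGHV12-3 each of the other J segments was less frequent than over all genes. IGHV11-2 joined IGHJ2 in 30.2%, IGHJ3 in 9.08% and IGHJ4 in 12.8% of clonotypes, and IGHV12-3 in 24.3%, 18.6% and 17.2%, where all genes together had 34.3%, 24.1% and 26.3%.

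HCDR3 length moved in opposite directions in the 2 genes. The mean was 10.7 ± 0.33 residues in IGHV11-2 and 12.2 ± 0.22 in IGHV12-3, against 11.46 ± 0.18 in the rest, shorter in 24 of 24 spleens and longer in 24 of 24 (adjusted p = 2.23e-05 for each, permutation). Of the 99 genes, 32.3% were called shorter and 53.5% longer. The lengths of IGHV12-3 were narrowly spread. In this gene 70.0% ± 6.88 of clonotypes had exactly 12 residues, against 14.75% ± 0.28 of the others, and 89.1% ± 5.46 of those carried glycine at the sixth position, against 17.9% ± 0.45. Both held in 62.5% of IGHV12-3 clonotypes and 79.4% of its counts, against 2.64% and 2.65% of the others, in each case with IGHV12-3 above the rest in 24 of 24 spleens. This 12-residue form was noticed in these data, so no test is attached to it. In IGHV11-2 the most frequent length was 11 residues (24.7% ± 4.79 of clonotypes, others 15.7%), with a second, smaller rise at 6 residues (9.62% ± 4.07, others 2.48%).

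**Figure D2:**
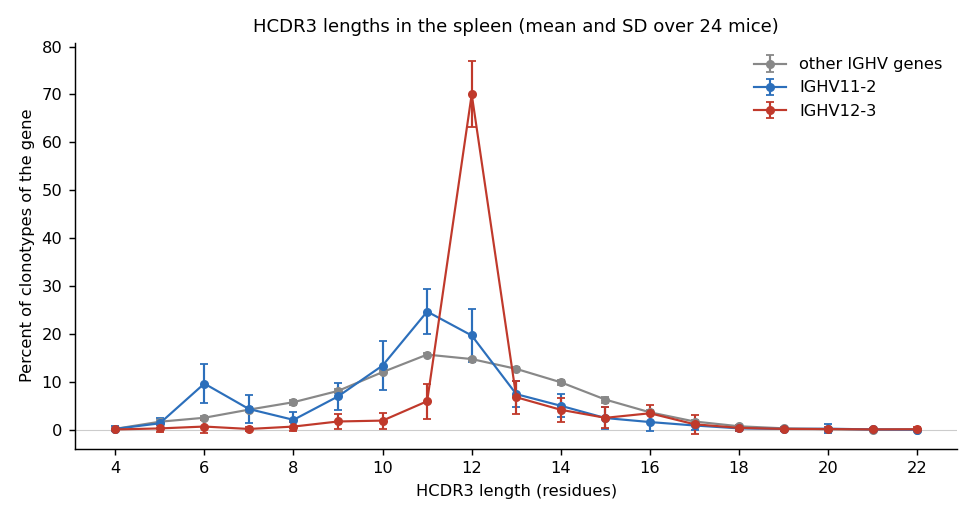
Percent of clonotypes at each HCDR3 length in residues, as mean and SD over 24 spleens, for IGHV11-2 (blue), IGHV12-3 (red) and all other IGHV genes (grey). IGHV12-3 rises to a single peak of 70.0% at 12 residues, and IGHV11-2 has its main peak of 24.7% at 11 and a small one of 9.62% at 6.

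Most of these loops began with residues that the germline V end encodes. Over all spleens, 70.6% of the 1818 IGHV11-2 clonotypes began with MR and 34.0% with MRY, and 94.7% of the 1559 IGHV12-3 clonotypes began with AG and 74.3% with AGD. The ending YWYFDV, which IGHJ1 gives when its first bases are kept, closed 11.8% of IGHV11-2 clonotypes and 11.7% of IGHV12-3 clonotypes. The same clonotypes held 55.4% and 47.3% of the counts of the 2 genes.

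**Figure D3:**
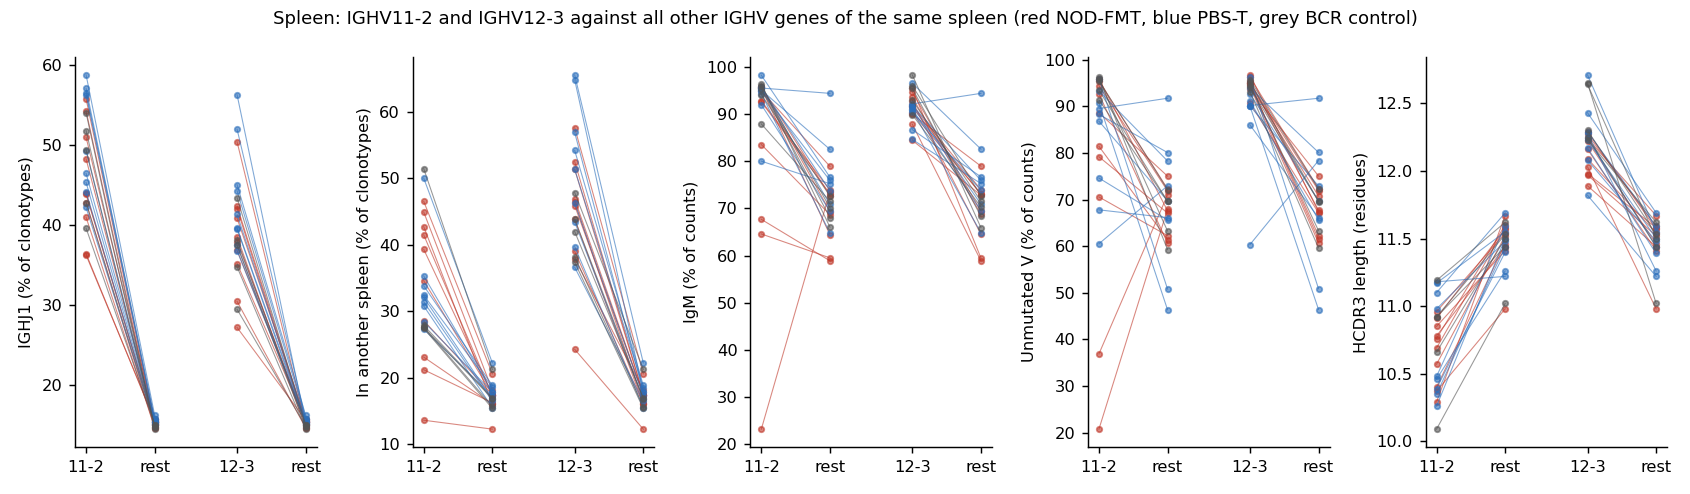
Features of spleen clonotypes in IGHV11-2 and IGHV12-3 and in all other IGHV genes of the same spleen, joined by a line per mouse and colored by group: percent of clonotypes with IGHJ1, percent of clonotypes found in another spleen, percent of counts that were IgM, percent of counts with an unmutated V region, and mean HCDR3 length in residues. Lines for IGHJ1 and for recurring clonotypes fall from gene to rest in 24 of 24 mice for both genes, while the unmutated share of IGHV11-2 falls below the rest in 4.

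Clonotypes of both genes recurred between mice more than those of other genes. The share of clonotypes found in at least 1 other spleen was 46.4% ± 9.41 in IGHV12-3 (range 24.3% to 65.5%) and 33.3% ± 9.28 in IGHV11-2 (range 13.6% to 51.4%), against 17.3% ± 2.05 in the rest. Both were higher in 24 of 24 spleens (p = 1e-05, adjusted 2.23e-05, permutation), where 24.2% of the 99 genes were called higher and 68.7% lower, and they ranked 1 and 2 by the mean. IGHV7-1 ranked 7 at 26.7% and IGHV6-6 ranked 8 at 25.2%. A shared clonotype enters the value of every spleen that holds it, so the 24 values of this feature are not independent. With the spleen of PBS-T 6 left out of the mean, the differences from the rest were 28.45 percentage points for IGHV12-3 and 15.5 for IGHV11-2. Recurrence itself was still counted over all 24 spleens, PBS-T 6 included, so this run does not remove clonotypes shared with that library alone.

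Over the 24 spleens, 156 of 1818 IGHV11-2 clonotypes (8.58%) and 202 of 1559 IGHV12-3 clonotypes (12.96%) were in 2 or more, against 6.22% over all genes and 8.86% in IGHV6-6, and 12 and 15 were in 12 or more. These 12 and 15 clonotypes made up 0.66% and 0.962% of each gene's clonotypes, against 0.081% over all genes. Their share of counts was 51.0% in IGHV11-2 and 33.7% in IGHV12-3, against 6.85% over all genes, and it was higher still in IGHV7-1 at 65.6%. Without PBS-T 6 it was 50.6% in IGHV11-2 and 32.7% in IGHV12-3. All 24 spleens held 59 clonotypes of any gene, of which 3 used IGHV11-2, 1 used IGHV12-3 and 6 used IGHV7-1. Of 130 IGHV11-1 clonotypes, 3 were in more than 1 spleen.

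MRYSNYWYFDV was the leading clonotype of IGHV11-2. It had 38 to 2288 counts a spleen (median 281.5, sum 11024), between 4.60% and 75.5% of the gene's counts, and it was the largest IGHV11-2 clonotype in 10 of 24 spleens. Its share of the library had a median of 0.0793% in NOD-FMT, 0.0846% in PBS-T and 0.0642% in BCR control, with ranges that overlapped. MRYGNYWYFDV followed with 12 to 1175 counts (median 191.5, sum 6231) and MRYGSSYWYFDV with 5 to 599 (median 101.5, sum 3167). A further pair of IGHJ1 clonotypes, MRYSSYWYFDV in 19 spleens (1562 counts) and MRYDGYYWYFDV in 18 (1284 counts), completed the most widely held 5 of the gene. They were uneven, and the median spleen held 7.5 and 2 counts of them.

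In IGHV12-3 the leading clonotype was AGDYDGYWYFDV. It had 3 to 715 counts a spleen (median 57.5, sum 2498) and was the largest IGHV12-3 clonotype in 12 of 24. AGDRDGYWYFDV was in 23 spleens with 479 counts, AGDSDGYWYFDV in 20 with 284, AGDRYGYWYFDV in 20 with 141 and the IGHJ2 clonotype AGDSDGYYYFDY in 20 with 135. All 5 had 12 residues and glycine at the sixth position. IGHV11-1 had no clonotype of this reach. Its most widely held one, MRGTGWYFDV, was in 5 spleens, with 200 of its 256 counts in NOD-FMT 1, and MRYSNYWYFDV in IGHV11-1 was in 2 spleens with 16 counts, in the same nucleotide form as in IGHV11-2.

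**Figure D4:**
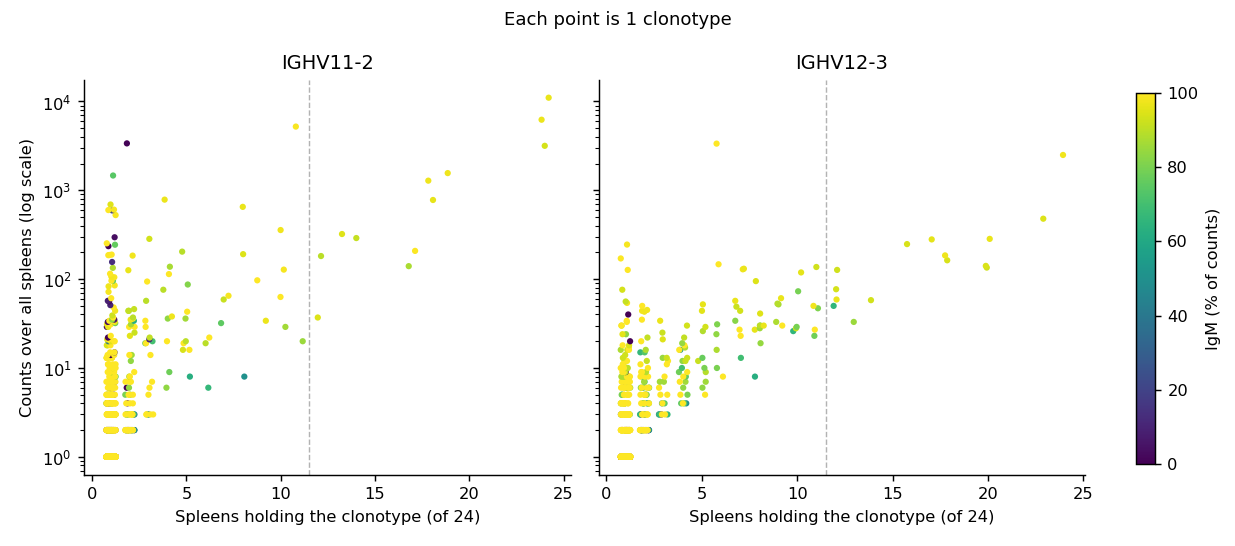
Each point is 1 spleen clonotype of IGHV11-2 or IGHV12-3, placed by the number of spleens that held it (of 24) and by its counts summed over spleens (log scale), and colored by the percent of its counts that were IgM; points are spread slightly sideways, and the dashed line lies below 12 spleens. Points at the right are few, high and mostly IgM, with 12 IGHV11-2 and 15 IGHV12-3 clonotypes in 12 or more spleens.

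The widely held clonotypes were IgM and nearly free of V mutations. In IGHV11-2, those in 12 or more spleens were 96.3% IgM by counts, and 95.5% of their counts had no mismatch to the germline V gene, while those in a single spleen were 75.7% IgM and 55.2% unmutated (78.7% unmutated in the median mouse). In IGHV12-3 the corresponding values were 96.2% and 95.5% against 85.3% and 89.9%. The median clonotype in 12 or more spleens had 550 counts in IGHV11-2 and 141 in IGHV12-3, and the median clonotype of a single spleen had 1 in both. A clonotype with more counts is also more likely to be found in another mouse, so these splits are descriptions.

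Over all clonotypes of a gene, IgM made up 88.2% ± 16.4 of IGHV11-2 counts (range 23.2% to 98.2%, median 94.9%) and 91.7% ± 3.51 of IGHV12-3 counts (range 84.4% to 98.3%), against 71.9% ± 7.33 in the rest. Each was higher in 23 of 24 spleens, with p = 0.00017 (adjusted 0.000315) and p = 1e-05 (adjusted 2.23e-05) by permutation, and 19.2% of the 99 genes were called higher and 20.2% lower. The exception in IGHV11-2 was NOD-FMT 10 at 23.2% and in IGHV12-3 it was PBS-T 6, whose other genes were 94.4% IgM. By the mean share of the 99 genes IGHV12-3 ranked 2, IGHV7-1 ranked 3 at 91.25% and IGHV11-2 ranked 6. With each unique sequence counted once, the IGHV11-2 difference of 16.35 percentage points was 2.10 (unadjusted p = 0.359, permutation), and without sequences found in more than 2 mice it was 7.67 (unadjusted p = 0.0871, permutation).

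The unmutated share was high in both genes by counts. In IGHV12-3, 92.1% ± 7.25 of counts had no mismatch to the germline V gene, against 68.1% ± 9.21 in the rest, higher in 22 of 24 spleens (p = 2e-05, adjusted 4.29e-05, permutation) and rank 1 of the 99 genes, of which 49.5% were called higher and 12.1% lower. In IGHV11-2 it was 82.4% ± 19.4 against 68.04%, higher in 20 of 24 (p = 0.00442, adjusted 0.00706, permutation), and the lowest spleens were NOD-FMT 10 at 20.7% and NOD-FMT 4 at 36.9%. IGHV11-2 ranked 12 of the 99 genes, and IGHV7-1 ranked 8 at 84.9%. The means of the 99 genes ran from 0% to 92.1%, with a median of 74.1%. By unique sequences the IGHV11-2 difference turned round. Its unmutated share was then 56.7% against 69.5%, higher than the rest in 5 of 24 spleens (unadjusted p = 0.00026, permutation), and without sequences found in more than 2 mice it was 63.7% against 65.3% (unadjusted p = 0.760, permutation). For IGHV12-3 the share of unique sequences was 82.7% against 69.4%, higher in 22 of 24 spleens. By unique sequences a rare variant weighs as much as the main sequence of its clonotype. MRYSNYWYFDV of IGHV11-2, 95.6% unmutated by counts, had 618 unique sequences summed over spleens. The origin of such variants was not tested.

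Single large clonotypes were found in the spleens that stood apart. In NOD-FMT 10 the IGHJ4 clonotype MRWGLGAMDY held 3372 counts, 73.3% of the gene, of which 99.0% were IgA and 0% unmutated. Its sequence is printed with those of the LG. In NOD-FMT 4 VTGDFDY held 1467 counts, 56.1% of the gene, 73.9% IgM and 20.5% IgA, also with 0% unmutated, and in PBS-T 1 MRGSRWYFDV held 55.0% of the gene with 36.1% unmutated. In IGHV12-3 the clonotype AGDSSGYYAMDY held 79.7% of the counts in BCR control 1 and was 99.8% IgM and 95.2% unmutated, and AGDSGNYYAMDY held 53.5% in PBS-T 3 with 30.7% unmutated. Each of the IGHV11-2 clones was in 1 or 2 spleens, and both IGHV12-3 clonotypes were in 6.

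The 5 features were compared between NOD-FMT and PBS-T in an exact permutation test over 92378 splits of the 19 mice, adjusted over the same 495 tests. No feature of either gene passed over all genes. Among their features the unmutated share of IGHV12-3 had the smallest p, and it did pass in the adjustment first planned, over the tests on these genes alone. That call was lost when any NOD-FMT mouse other than NOD-FMT 6, or PBS-T 3 or PBS-T 9, was left out. The share was 94.7% ± 1.65 in NOD-FMT and 87.9% ± 10.7 in PBS-T (p = 0.00297, adjusted 0.163, exact permutation), where 0% of the 99 genes were called in either direction. PBS-T 3, with its AGDSGNYYAMDY clone, was lowest at 60.3%, and without it the difference was 3.38 percentage points in place of 6.83. The IGHJ1 share was lower in NOD-FMT for IGHV11-2 (45.4% against 50.7%, p = 0.1001) and for IGHV12-3 (38.2% against 43.7%, p = 0.0917), each with an adjusted p of 0.885 (exact permutation), where 2.02% of the genes were called lower. The IgM share of IGHV11-2 was 80.6% ± 23.3 in NOD-FMT, 93.5% ± 5.30 in PBS-T and 94.0% ± 3.49 in BCR control (NOD-FMT against PBS-T p = 0.107, adjusted 0.885, exact permutation). NOD-FMT 10, with its IgA clonotype, was lowest in NOD-FMT.

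The LG held the genes in small numbers. IGHV11-2 was found in 23 of 24 LG libraries with 0 to 19 clonotypes each, IGHV12-3 in 15 of 24 with 0 to 35, and IGHV11-1 as 1 count in PBS-T 5. A count of 0 allows a share of up to 0.000833% to 0.00741% of a library, by counting error alone. IGHV11-2 made up 0.379% ± 0.384 of LG clonotypes (SD, n = 24, median 0.200%, range 0% to 1.72%) against 0.0693% in the spleens of the same mice, higher in the LG in 21 of 24 (p = 2e-05, adjusted 0.00022 over 132 genes, sign-flip permutation). With spleens thinned to the count total of the LG of the same mouse it was 0.379% against 0.0982% (adjusted p = 0.000611, permutation, means over 10 draws). The spleen of NOD-FMT 2, with 168907 counts against 264744 in its LG, could not be thinned and was kept whole. Thinning matched counts and not numbers of clonotypes, so the tissues still differed in clonotypes per count. In BCR control 2 the whole spleen held 42729 clonotypes in 86717 counts, and the LG held 1108 in 64963. The thinned comparison therefore cannot tell a difference in usage from this one. Of the 132 genes 42.4% were called, 21.2% higher in the LG and 21.2% higher in the spleen.

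The shares of counts lay the other way in most mice. The IGHV11-2 share of counts was higher in the spleen in 22 of 24 mice, with a median of 0.0175% in the LG and 0.351% in the spleen, while the LG mean of 0.842% included BCR control 2 at 16.6% (adjusted p = 1, permutation). Some LG clonotypes lay 1 residue from a clonotype of the same V and J genes with at least 20 times their counts in the same library. These were 22 of 103 IGHV11-2 clonotypes (21.4%), 17 of them in BCR control 2, against 17.7% of all LG clonotypes. Without them, an alternative chosen after seeing the data, the difference was 0.289 percentage points in place of 0.310, higher in the LG in 23 of 24 (adjusted p = 0.000132, permutation).

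IGHV12-3 also made up more of the LG clonotypes, 0.148% ± 0.133 against 0.0689%, but in 15 of 24 mice only (p = 0.00597, adjusted 0.0183, permutation). Without sequences found in more than 2 mice the call was lost, with 0.0287 percentage points in place of 0.0787 (adjusted p = 0.245, permutation). It was also lost with the spleens thinned as above (0.0657). Of the LG libraries, 11 carry the word merged in their deposited name, and the sources used do not say what was merged. In mice with merged (n = 11) and other (n = 13) LG libraries alone the differences were 0.0890 and 0.0700. With these fewer mice neither was called (adjusted p of 0.0780 and 0.286, permutation). The direction turned, with no call, by share of counts (higher in the spleen in 22 of 24, 0.226) and with sequences of 1 count left out (higher in the spleen in 15 of 24, 0.919). With the mouse PBS-T 5 left out it held (0.0767 percentage points, adjusted p = 0.0265, permutation). That run kept the 2 large IgA clonotypes of PBS-T 5, named below, in the 10 and 8 other glands that held them. It therefore does not show whether the difference depends on sequences of that library. Of the 68 LG clonotypes, 27 (39.7%) lay 1 residue from a larger one as defined above, all in PBS-T 5, and without such clonotypes the difference was 0.101 percentage points, higher in the LG in 14 of 24 (adjusted p = 0.0124, permutation). IGHV11-1 had 1 clonotype over all LG libraries. Its mean share of clonotypes was 0.000242% in the LG and 0.00411% in the spleen, lower in the LG in 23 of 24 mice (adjusted p = 0.000165, permutation), and with the spleens thinned the call held (0.000447). The LG libraries were shallow for this gene. Each mouse's spleen share of clonotypes would give 1.37 clonotypes over all LG libraries, where 1 was found. Nearly every gland would then hold none, so neither call by clonotypes shows a lower share in the LG. By counts its share was lower in the LG in 24 of 24 mice (adjusted p = 8.8e-05, permutation), and the spleen shares would give 161.4 counts, 100.5 of them in NOD-FMT 1, where 1 was found. In the spleens of NOD-FMT 1 and PBS-T 2 a single clonotype, MRGTGWYFDV, held 200 of 211 and 48 of 50 counts of the gene. Every spleen held the gene and every gland but that of PBS-T 5 lacked it. A gland without the gene lies below its spleen at any depth, so the direction in 24 of 24 does not show a lower share in each LG. For neither IGHV11-2 nor IGHV12-3 was the difference between tissues called different between NOD-FMT and PBS-T (adjusted p of 0.684 or more, exact permutation).

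Neither gene was called between NOD-FMT and PBS-T in the LG. For clonotypes the log2 ratio was 0.08 (SE 0.60, edgeR adjusted p = 0.940) for IGHV11-2 and -0.99 (SE 0.79, adjusted p = 0.504) for IGHV12-3, where 4.46% of 112 genes were called and the median gene had -0.21. For counts it was 2.40 (SE 1.44, adjusted p = 0.412) for IGHV11-2 and -4.77 (SE 1.78, adjusted p = 0.230) for IGHV12-3, where edgeR called 0 of 112 genes (0%), 17 had an unadjusted p under 0.05, DESeq2 called 9 and the median gene had -0.50. The IGHV12-3 value rested on PBS-T 5, which held 2692 of the 2710 IGHV12-3 counts of the 9 PBS-T glands, and was -0.29 (adjusted p = 0.959) without it. That of IGHV11-2 was 0.44 (adjusted p = 0.857) without NOD-FMT 6. The standard errors are large beside those of the spleen, so a missed call does not show that the groups were alike.

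**Figure D5:**
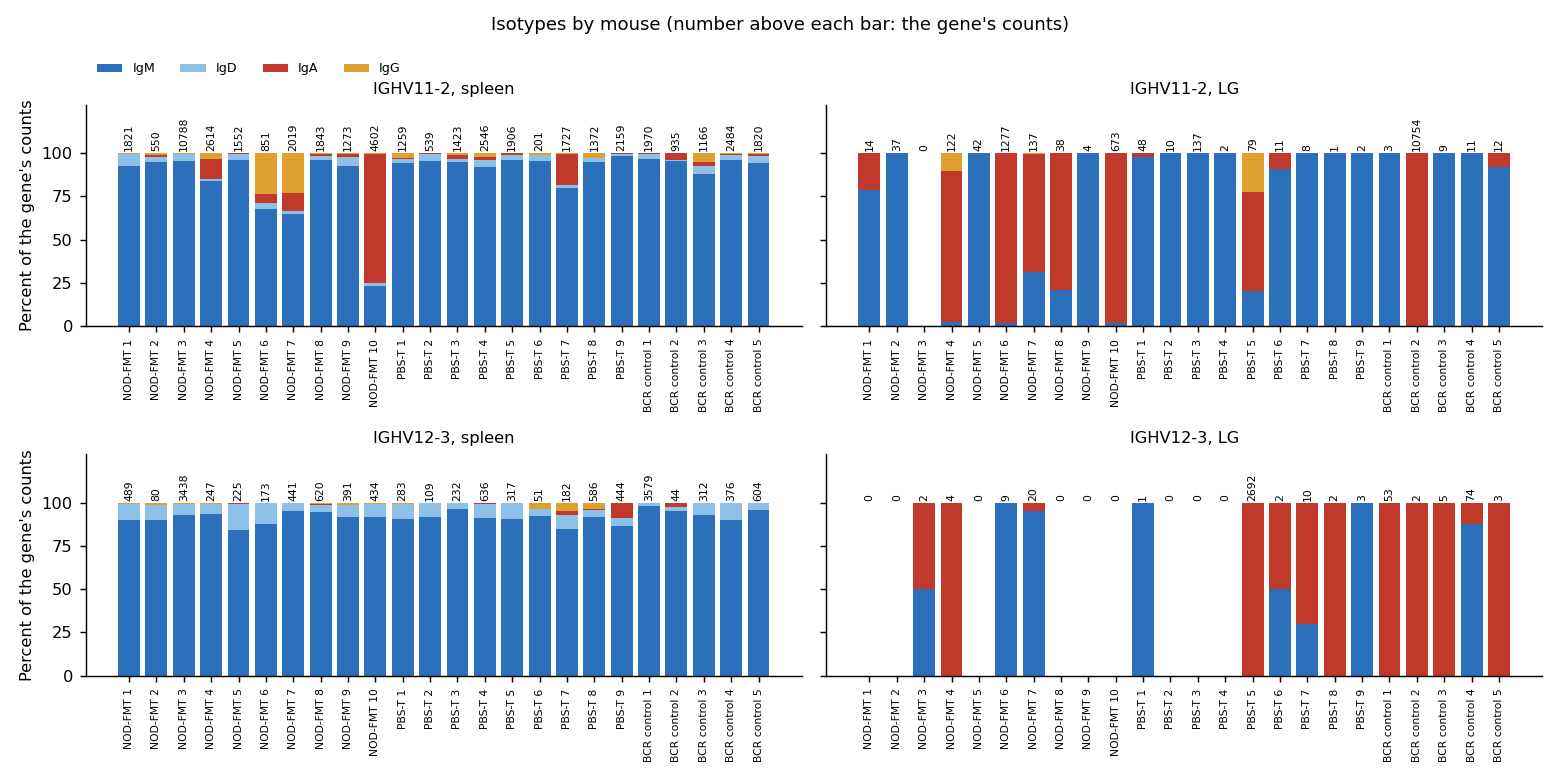
Percent of the counts of IGHV11-2 and IGHV12-3 that were IgM, IgD, IgA or IgG in the spleen and LG of each mouse, with the gene's counts above each bar. Spleen bars are mostly IgM, with 23.2% IgM in IGHV11-2 of NOD-FMT 10, which is mostly IgA, and visible IgG in NOD-FMT 6 and NOD-FMT 7, and in the LG the IGHV11-2 bars of NOD-FMT 6, NOD-FMT 10 and BCR control 2 are nearly all IgA.

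The LG held clonotypes of the recurring spleen set as IgM, mostly at low counts. MRYSNYWYFDV was in 15 LG libraries with 195 counts, all IgM and 98.0% unmutated, of which PBS-T 3 held 132. MRYGNYWYFDV was in 9 with 98 counts and MRYGSSYWYFDV in 6 with 35. Of the 41 LG occurrences of clonotypes held by 12 or more spleens, 40 had the clonotype in the spleen of the same mouse, but another mouse's spleen held it in 92.3% of cases on average.

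Large IgA clonotypes were found beside them. The 2 IGHV11-2 clonotypes that passed 0.5% of an LG library, and the spleen clone of NOD-FMT 10, are printed with the same use of case, because they held most IGHV11-2 counts of their library.
IGHV11-2 with IGHJ2, MRWGGDGFDY, LG of BCR control 2: atgagatGGGGGGGGGACGGctttgactac
IGHV11-2 with IGHJ1, MRYGYGGYFDV, LG of NOD-FMT 6: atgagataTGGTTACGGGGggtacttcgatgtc
IGHV11-2 with IGHJ4, MRWGLGAMDY, spleen of NOD-FMT 10: atgagatGGGGGCTGGGtgctatggactac

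MRWGGDGFDY held 10683 of 64963 counts of the LG of BCR control 2 (16.4%, 95% Wilson interval 16.2% to 16.7%). All were IgA and 95.6% were unmutated, and the spleen of the same mouse held 22 counts of it, also IgA. MRYGYGGYFDV held 1237 counts of the LG of NOD-FMT 6 (2.29%, interval 2.17% to 2.42%), all IgA and 95.2% unmutated. In the spleen of that mouse it had 235 counts, of which 82.1% were IgG and 17.9% IgA, and 40.0% were unmutated. These intervals cover counting error only.

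IGHV11-2 clonotypes held by fewer than 12 spleens were shared between the LG and the spleen of the same mouse 12 times, in 9 mice, with MRYGSSWYFDV shared in both PBS-T 3 and PBS-T 5. VRRSYHWYFDV of NOD-FMT 10 was IgA in the LG (503 counts) and IgM in the spleen (96 counts), with 0% unmutated in both. VTGDFDY of NOD-FMT 4 was 89.1% IgA in the LG (119 counts) and 73.9% IgM in the spleen (1467 counts). MRWGTGAMDY and MRWGYGAMDY of NOD-FMT 7 differ by 1 residue from each other and from MRWGLGAMDY of NOD-FMT 10, and were 91.4% and 78.2% IgA in the spleen and 66.3% and 100% IgA in the LG. MRWGIGAMDY, which differs at the same residue, was the largest IGHV11-2 clonotype of the NOD-FMT 7 spleen. Its 594 counts were only 5.72% IgA and 20.0% IgM, and no LG held it. Of LG clonotypes held by fewer than 12 spleens, 12 of 62 (19.4%) were in the same mouse's spleen, where another mouse's spleen held 4.35% on average. For IGHV12-3 it was 5 of 62 (8.06%) against 2.03%. Without PBS-T 5, which held 35 of the 62, it was 5 of 27 (18.5%) against 4.67%. Those 27 still included the 2 large IgA clonotypes of PBS-T 5, named below, in 10 and 8 other glands, and no spleen held either. Without NOD-FMT 7 it was 3 of 59 (5.1%) against 1.7%.

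By mouse, IGHV11-2 counts in the LG were mostly IgA in 5 of 9 NOD-FMT glands that held the gene, in 1 of 9 PBS-T glands and in 1 of 5 BCR control glands. This split was noticed after the values were seen and was not tested, and 3 of the PBS-T glands held 1 or 2 counts. PBS-T 2, 6 and 7 held 10, 11 and 8 counts, and BCR control 1, 3, 4 and 5 held 3, 9, 11 and 12. The lowest NOD-FMT glands with the gene held 4 (NOD-FMT 9) and 14 (NOD-FMT 1). LG libraries had a median of 164166.5 counts in NOD-FMT and 57793 in PBS-T. Pooled over glands, 96.4% of IGHV11-2 counts were IgA, but the median gland was 100% IgM. Over all genes 89.3% of LG counts were IgA, and the median gland was 96.6% IgA and 1.16% IgM.

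In IGHV12-3 the LG counts were led by 2 IGHJ3 clonotypes with 13 residues, which lack the 12-residue form of the spleen.
IGHV12-3 with IGHJ3, AGDSGDYDRLFAY: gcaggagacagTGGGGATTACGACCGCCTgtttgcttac
IGHV12-3 with IGHJ3, AGDMGDYDGLFAY: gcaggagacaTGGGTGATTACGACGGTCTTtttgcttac
AGDSGDYDRLFAY was in 11 LG libraries with 1682 counts, 99.9% IgA, and AGDMGDYDGLFAY in 9 with 987, all IgA. PBS-T 5 held 1661 and 971 of these, and the other glands held at most 6 and 3 counts each. Of the 21 and 16 counts outside PBS-T 5, 17 and 15 lay on nucleotide sequences identical to ones of PBS-T 5, and no spleen held either clonotype. PBS-T 5 is the LG library with the most counts on shared sequences, and transfer of molecules between libraries was not tested. Without PBS-T 5, IGHV12-3 had 190 counts in the LG. Of its 33 clonotypes there, 11 (33.3%) were in the spleen of the same mouse, where another mouse's spleen held 19.5% on average. Of the 11, 6 were clonotypes held by 12 or more spleens.

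Leaving out sequences found in more than 2 mice, a wider filter than the study's own, took a large share of their counts. Over all genes it removed 9.84% of spleen counts (8.74% with PBS-T 6 left out) and 9.83% of LG counts (1.98% with PBS-T 5 and NOD-FMT 7 left out). It removed 60.6% of IGHV11-2 counts and 60.0% of IGHV12-3 counts in the spleen, ranks 2 and 3 of 118 genes after IGHV7-1 at 64.0%, where the median gene lost 3.50%. IGHV11-1 lost 0%. In the LG it removed 74.9% of IGHV12-3 counts, rank 1 of 112 genes, and 2.72% of IGHV11-2 counts. The IGHV12-3 value rested on PBS-T 5, and without that library it was 20.5%, 39 of 190 counts. After this step the differences of both genes from the rest in IGHJ1, recurrence and length held in 24 of 24 spleens, while the IgM and unmutated shares of IGHV11-2 did not pass.

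Over the 24 spleens the genes most alike in percent of clonotypes to IGHV11-2 were IGHV3-5 (Spearman rho 0.660), IGHV2-9 (0.576) and IGHV1-14 (0.475), of 117 compared. To IGHV12-3 they were IGHV6-3 (0.576), IGHV6-6 (0.548) and IGHV3-5 (0.518), and to IGHV11-1 they were IGHV12-3 (0.313), IGHV2-9 (0.307) and IGHV6-4 (0.290). IGHV11-2 and IGHV12-3 had a rho of 0.469. These values share libraries and depth, and the IGHV11-2 share had a rho of -0.49 with the clonotype total of the library.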

How the data were processed

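Heavy-chain BCR libraries of LG and spleen from 24 mice (48 libraries) were analysed. The authors merged reads with PEAR, kept those of high Phred score, built consensus sequences by unique molecular identifier without singletons with Clustal Omega, and annotated them with IMGT and IgBLAST. For each unique sequence the authors deposited its counts (UMI consensus sequences, not normalized), its fraction of all counts in the library, used here only to check totals, and the mismatched bases of its V alignment. The study's later filter against cross-contamination had not been applied to these tables.

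Genes are the text of the V call before the allele. Usage was tested with edgeR 4.0.16 (quasi-likelihood, robust, library total as scale, all 24 libraries of a tissue in 1 fit, Benjamini-Hochberg over genes with at least 10 clonotypes, threshold 0.05), with DESeq2 1.42.0 as an alternative. The labels call replicates biological, and p-values measure the spread between mice. For the recurring share the values of the mice are not independent, because each is set by the clonotypes of the other spleens. Tissues were paired by mouse. Features needed 10 clonotypes of the gene in a spleen and were adjusted over all genes and features; this adjustment and the runs without single libraries that share many sequences and without near neighbours were chosen after seeing the data. The tests were tried on simulated data with R 4.3.3, Python 3.11.15 and SciPy 1.17.1. There the edgeR test on LG counts found none of the changed genes, and that on LG clonotypes missed many. Named are the 3 genes, IGHV7-1 and IGHV6-6 for comparison, the 3 genes most alike to each, the 5 clonotypes of each gene in most spleens, LG clonotypes in 4 or more glands or at 0.5% of a library, and largest or shared clonotypes chosen after their values were seen. The members and lists were chosen with earlier results of these data known. Positions are GRCm38 (GENCODE M21), matched by symbol; the processing notes name mm10.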

Additional observations from a re-analysis of the deposited data

Results flagged for a closer look

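In 62 groups of 4 to 10 mice the highest or lowest mouse was compared with the others by Dixon's criterion. For independent, normally spread values chance meets it in about 1 group in 20, and here it was met 20 times. These values include zeros and single large clonotypes, and the same mice enter by clonotypes and by counts. The 20 flags are therefore no measure of an excess over chance. No explanation was tested for any of them.

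In the LG, IGHV11-2 stood apart in BCR control 2 at 1.72% of clonotypes and 16.6% of counts, in NOD-FMT 6 at 1.06% of clonotypes and 2.36% of counts, and in PBS-T 3 at 0.338% of counts. The first pair of mice are those with the large IgA clones, and in PBS-T 3 the counts were all IgM. IGHV12-3 stood apart in PBS-T 5 at 0.747% of LG counts and in NOD-FMT 6 at 0.0167%. IGHV11-1 was found in 1 gland alone, PBS-T 5, at 0.00581% of clonotypes and 0.000278% of counts, which is a single count.

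In the spleen, IGHV12-3 took 0.628% of counts in BCR control 1, the mouse with the AGDSSGYYAMDY clone. IGHV11-1 took 0.0412% of counts in NOD-FMT 1, 0.0185% in PBS-T 2 and 0.00695% in BCR control 3. The recurring share of IGHV11-2 clonotypes was highest in BCR control 2 at 51.4% and in PBS-T 6 at 50%, the spleens with the 35 and 28 IGHV11-2 clonotypes that are the fewest of all. Each within its own group, the IgM share of IGHV11-2 was lowest in NOD-FMT 10 at 23.2%, PBS-T 7 at 80.0% and BCR control 3 at 87.9%. Likewise the unmutated share of IGHV12-3 was lowest of PBS-T in PBS-T 3 at 60.3% and lowest of NOD-FMT in NOD-FMT 6 at 90.8%, which is above the PBS-T median of 90.2%.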

How the results depend on the processing

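Of 1460 values under alternatives, 1340 kept their direction and side of the threshold, or moved by less than 1.5 times for counts of genes. For the 3 genes, no usage difference between groups passed by edgeR under any alternative. By permutation IGHV11-2 in the spleen passed (-0.39 on the log2 scale, adjusted p = 0.0256). The direction of IGHV11-1 turned in spleen clonotypes against PBS-T (0.0177 with TMM, 0.0130 with DESeq2, 0.0370 without sequences in 2 or more mice, 0.211 mean ranks) and, for PBS-T against BCR control, with sequences of 1 count left out (0.53). In spleen counts it turned for IGHV11-1 with DESeq2 (-1.43), the replicate block (-0.24) and ranks (-1.48), and for IGHV12-3 with TMM (-0.0257). In LG clonotypes it turned for IGHV11-2 with the replicate block (-0.14), in merged (-0.0552) and in other (-0.0601) libraries alone and by ranks (-0.633), and in LG counts for IGHV12-3 in merged libraries alone (1.25). The causes were not tested.

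Genes called, 1 in spleen clonotypes, were 2 with DESeq2, 3 with sequences of 1 count left out, 0 with the replicate block, 2 by permutation and 2.3 on average when thinned. Against BCR control they were 1 with DESeq2 and 0.6 when thinned for NOD-FMT, and 0.1 when thinned for PBS-T. In spleen counts the 6 became 3 with sequences of 1 count left out and 0 with the replicate block, by permutation and by ranks. In LG clonotypes the 5 became 3 without sequences in 2 or more mice, 9 with sequences of 1 count left out, 0 with the replicate block and in merged libraries alone, 3 by permutation and 1 by ranks. In LG counts the 0 became 9 with DESeq2 and 1 in merged libraries alone. Of genes called between tissues, 56 in all, 32 were called in merged and 25 in other LG libraries alone.

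The tissue difference of IGHV11-2 by counts was 0.395 percentage points (adjusted p = 1). That of IGHV12-3 was 0.0287 without sequences in more than 2 mice, -0.0611 by counts, -0.0205 with sequences of 1 count left out, 0.0890 and 0.0700 in mice with merged and other LG libraries and 0.0572 when thinned. Among features against the rest, 4 changed, all in IGHV11-2: IgM (7.67 without sequences in more than 2 mice, 2.10 by unique sequences) and the unmutated share (-1.58 and -12.8). Between NOD-FMT and PBS-T, IGHV11-2 recurrence was -0.329 with 2 other spleens required, IGHV12-3 recurrence was 0.0725 when thinned and its IgM share -3.35 by unique sequences. The unmutated share of IGHV12-3, 6.83 percentage points, passed only in the adjustment planned over the tests on these genes and not in that over all genes. It was 11.6 without sequences in more than 2 mice, 3.86 by unique sequences, 5.11 with 1 mismatch allowed, 6.43 when thinned and 6.60 with the replicate block, none of which passed.

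With each mouse left out in turn, log2 ratios ran from -0.14 to 0.23 for IGHV11-1 and from -0.19 to 0.0335 (without BCR control 1) for IGHV12-3 against BCR control in spleen clonotypes, from -1.21 to 1.48 for IGHV11-1 and from -0.0125 (without NOD-FMT 10) to 0.40 for IGHV11-2 in spleen counts, and from -0.26 to 0.31 for IGHV11-2 in LG clonotypes. Genes called ran from 0 to 1 in spleen clonotypes for both NOD-FMT comparisons, from 0 (without NOD-FMT 3) to 6 in spleen counts, from 2 (without NOD-FMT 2 or 9 or PBS-T 6 or 7) to 6 in LG clonotypes and from 0 to 1 in LG counts. The single gene called in spleen clonotypes was lost without NOD-FMT 2 or 7 or PBS-T 1, 2, 5 or 6. NOD-FMT minus PBS-T ran from -0.107 to 0.00817 residues and from -1.35 to 2.31 percentage points for IGHV11-2 length and recurrence, and from -0.203 to 1.31 and from 3.38 to 7.88 for the IgM and unmutated shares of IGHV12-3.

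Mice share replicate numbers across groups, but the numbers did not pair them. Correlations of same-numbered mice ran from -0.56 to 0.63 in the spleen and from -0.29 to 0.39 in the LG, and 4 of 9 exceeded 0.1 in each, so between groups the fits with the replicate block are given here only. The tissue tests paired the LG and spleen of a mouse throughout, and without that pairing adjusted p was 8.8e-05 for IGHV11-2 and 0.0161 for IGHV12-3. In the LG, depth left few clonotypes of these genes per library.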
